A study of Mus musculus with 18 samples.

Results

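The genes described here are 10 genes of muscle differentiation: the myosin heavy chain Myh3, the myosin light chains Myl1 and Myl4, the sarcomeric actins Acta1 and Actc1, the troponin C gene Tnnc2, the thin filament capping gene Tmod4, the desmin gene Des, the muscle ubiquitin ligase gene Trim55 and the acetylcholine receptor subunit gene Chrng. They were picked by symbol, and each matched exactly 1 of the 53465 gene rows of the deposited table. Their choice rested on values of these same libraries, in which several of them were selected on a higher level in the anterior than in the posterior piece, so their regional levels are given as a description with no test. The symbols were read from the GENCODE M21 annotation of the mouse build GRCm38.

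RNA was measured in 18 libraries from 9 mouse embryos at embryonic day 9, with 20 to 24 somites. There were 5 control embryos and 4 double knockout (DKO) embryos, in which Meis1 and Meis2 were deleted conditionally with Delta1Cre, a recombinase driven from the Delta1 (Dll1) gene, which is expressed in the presomitic mesoderm. The labels do not say whether the controls carried the recombinase or the floxed alleles. Each embryo was cut into a posterior piece, with the axial bud and the newest 10 to 12 somites, and an anterior piece with the older somites, and the head level in front of the somites was not included. The anterior piece therefore holds the most mature myotomes together with neural tube, vessels and other tissues. Control embryos 1 to 5 had 23, 20, 24, 21 and 23 somites, DKO embryos 1 to 4 had 22, 24, 20 and 23 somites, and library values are listed in that order throughout. Levels are CPM, counts per megacount of the library after scaling between libraries.

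As background, skeletal muscle of the trunk arises in the myotome of the somite, where myogenic regulatory factors such as Myf5 and Myog switch on genes of the contractile machinery. The sarcomere slides thick filaments of myosin along thin filaments of actin, troponin and tropomyosin, and calcium binding to troponin C starts the movement. Somites form from anterior to posterior, so the oldest somites are the first to differentiate. Embryonic muscle uses its own isoforms, among them Myh3 and the gamma subunit of the acetylcholine receptor, and also Actc1 and Myl4, which the heart expresses as well.

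RefSeq start regions in the build GRCm38.p6 were found for 9 of the 10 genes, Trim55 being the exception. The stretches just upstream of the start are shown for 2 of the 3 genes with the steepest anterior somite slopes (Myh3, Acta1), for a gene with a CArG box (Actc1), and for the genes with the highest log2 differences of DKO from control in the anterior piece (Chrng, Tmod4). Each is given 5′ to 3′ on the strand of the gene, annotated exons were left out, and capitals mark every match to an E-box (CANNTG, the core bound by myogenic regulatory factors), a CArG box (bound by serum response factor), a MEF2 site or TATAAA on either strand. The Myh3 stretch is chr11:67078150-67078299 on the plus strand, Acta1 is chr8:123894776-123894925 on the minus strand, Actc1 is chr2:114052888-114053025 on the minus strand, Chrng is chr1:87205661-87205809 on the plus strand and Tmod4 is chr3:95124364-95124475 on the plus strand.
Myh3: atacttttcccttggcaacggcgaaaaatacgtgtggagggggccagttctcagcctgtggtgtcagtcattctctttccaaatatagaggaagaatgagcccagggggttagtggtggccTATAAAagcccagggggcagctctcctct
Acta1: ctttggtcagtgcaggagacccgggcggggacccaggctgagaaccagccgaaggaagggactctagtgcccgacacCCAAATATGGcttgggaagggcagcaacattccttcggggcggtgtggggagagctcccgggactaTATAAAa
Actc1: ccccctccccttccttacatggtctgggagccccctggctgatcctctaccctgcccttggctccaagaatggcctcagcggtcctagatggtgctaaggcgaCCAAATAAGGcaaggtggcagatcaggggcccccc
Chrng: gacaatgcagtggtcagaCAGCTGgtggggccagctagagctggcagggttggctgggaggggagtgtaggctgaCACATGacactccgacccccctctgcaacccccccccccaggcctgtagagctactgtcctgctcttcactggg
Tmod4: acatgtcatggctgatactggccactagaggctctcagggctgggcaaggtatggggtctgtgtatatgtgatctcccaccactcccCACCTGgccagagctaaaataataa
Over the 250 bases upstream of the start, an E-box was found in 7 of the 9 genes (Myh3, Acta1, Tnnc2, Chrng, Myl1, Des and Tmod4), and 66.2% of 32851 RefSeq starts hold one. The E-box CAGCTG, which is part of the former set, was found in 4 (Acta1, Chrng, Myl1 and Des), against 13% of starts. A CArG box was found in 2, Acta1 (73 to 64 bases upstream) and Actc1 (47 to 38 bases upstream), against 1.47% of starts. TATAAA was found in 3 (Myh3, Acta1 and Myl1), against 12.4% of starts, and a MEF2 site in 0 of the 9, against 2.92% of starts.

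Library totals ranged from 12.7 to 38.2 megacounts of RSEM expected counts, so that 3 counts, taken as the floor of detection, correspond to 0.0786 to 0.237 CPM. In the anterior piece Meis1 lay at 113 to 135 CPM in controls and 89.8 to 111 CPM in DKO, and Meis2 at 177 to 203 CPM and 130 to 157 CPM. In the posterior piece Meis1 lay at 59.6 to 99.9 CPM in controls and 46.7 to 72.0 CPM in DKO, which overlap, and Meis2 at 117 to 162 CPM and 91.2 to 116 CPM. Counts per gene do not show which exons were read. The sum of 4 Y-linked genes was 126 to 175 CPM in 5 embryos and at most 0.930 CPM in the other 4. Both libraries of control embryo 1, which is labelled female, were at 151 and 162 CPM. The 5 embryos with Y-linked expression had 23 or 24 somites and the other 4 had 20 to 22, so somite number and sex cannot be told apart in any slope given below. Mean somite number was 22.2 in controls and 22.25 in DKO embryos. Each embryo gave 1 library per piece, so within a piece p-values measure the spread between embryos. The interaction and region fits had no embryo term, so both pieces of an embryo counted there as separate libraries.

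Levels of the 10 genes in the anterior piece of controls spanned a wide range. On a scale of CPM per kilobase of annotated exon, which allows genes to be compared, Actc1 was the highest at 25.3 ± 6.93 (SD, n = 5), followed by Acta1 at 12.5 ± 3.84, Tnnc2 at 9.27 ± 1.24, Des at 7.53 ± 1.22 and Myh3 at 6.27 ± 1.81. Myl1 followed at 2.002 ± 0.585, Myl4 at 1.13 ± 0.377, Trim55 at 0.767 ± 0.0881, Chrng at 0.620 ± 0.167 and Tmod4 at 0.223 ± 0.132. Of neighbours in this order, Acta1 and Tnnc2, Des and Myh3, Myl4 and Trim55, and Trim55 and Chrng differed by less than the larger of their SDs, and the other neighbours by more. The long annotated exons of Chrng and Myl4 cover several isoforms, so their values on this scale may be too low.

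Of the thick filament genes, Myh3 was close to absent posteriorly and the light chain genes were not. Myh3 (ENSMUSG00000020908, chr11:67078300-67102291, plus strand) encodes the embryonic myosin heavy chain. In the anterior piece it was at 52.1, 23.4, 44.6, 36.4 and 33.3 CPM in controls and at 32.8, 58.3, 14.1 and 32.1 CPM in DKO. In the posterior piece it was at 0.290, 0.258, 0.151, 0.204 and 0 CPM in controls and at 0.114, 1.19, 0.160 and 0.256 CPM in DKO. Every anterior library lay above every posterior library, the group means differed 210-fold in controls, and the posterior values were 0 to 11 counts except in DKO embryo 2, which had 34. Myl1 (ENSMUSG00000061816, chr1:66924295-66945404, minus strand), a light chain gene of fast muscle, averaged 4.15 ± 1.21 CPM in anterior controls and 1.42 ± 0.336 CPM in posterior controls. Myl4 (ENSMUSG00000061086, chr11:104550663-104595753, plus strand), the embryonic and atrial light chain, averaged 5.22 ± 1.75 CPM and 1.36 ± 0.862 CPM. For both light chains the anterior and posterior libraries did not overlap in either genotype.

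Of the thin filament genes, Tnnc2 was close to absent posteriorly, and Acta1 and Actc1 were above the floor in every posterior library. Acta1 (ENSMUSG00000031972, chr8:123891769-123894751, minus strand) encodes skeletal muscle actin. It was at 27.1, 12.3, 23.2, 15.6 and 18.1 CPM in anterior controls and at 34.6, 53.2, 20.2 and 32.6 CPM in anterior DKO. Posterior values were 1.32, 0.516, 1.41, 0.919 and 0.458 CPM in controls and 0.492, 3.98, 0.320 and 0.615 CPM in DKO. Here too DKO embryo 2, with 24 somites, stood above the other posterior libraries. Actc1 (ENSMUSG00000068614, chr2:114047282-114053548, minus strand), the cardiac actin that embryonic skeletal muscle also uses, was at 59.7, 30.1, 40.8, 35.9 and 38.0 CPM in anterior controls and at 37.4, 60.3, 31.2 and 37.8 CPM in anterior DKO. Its posterior level was 12.4, 8.46, 12.96, 9.66 and 11.5 CPM in controls and 10.9, 20.6, 8.33 and 11.4 CPM in DKO, a ratio of anterior to posterior means of 3.72 in controls. Tnnc2 (ENSMUSG00000017300, chr2:164777161-164779967, minus strand), the calcium sensor of fast muscle, averaged 7.41 ± 0.989 CPM in anterior controls and 0.131 ± 0.151 CPM in posterior controls.

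In controls the remaining genes differed less along the axis, apart from Chrng. Chrng (ENSMUSG00000026253, chr1:87204657-87212694, plus strand), the receptor subunit of embryonic muscle, was at 3.17, 1.63, 3.34, 2.36 and 2.40 CPM in anterior controls. In posterior controls it had 3, 0, 4, 2 and 0 counts, at or next to the floor. Des (ENSMUSG00000026208, chr1:75360329-75368579, plus strand), the intermediate filament that ties sarcomeres together, averaged 28.3 ± 4.58 CPM in anterior and 28.0 ± 3.17 CPM in posterior controls. Tmod4 (ENSMUSG00000005628, chr3:95124476-95129209, plus strand) averaged 0.382 ± 0.226 and 0.342 ± 0.362 CPM, and Trim55 (ENSMUSG00000060913, chr3:19644474-19692421, plus strand) 2.04 ± 0.234 and 2.40 ± 0.778 CPM. These last 3 genes thus overlapped between the pieces in controls. In DKO the ratio of anterior to posterior means was 3.94 for Trim55 and 1.34 for Des, without overlap between the pieces. For Tmod4 it was 0.915, with overlap. All anterior libraries lay above all posterior ones for 7 of the 9 genes that passed the filter in controls, where 10.7% of all genes did, and for 9 of 10 in DKO, where 12.7% did. Since the genes were selected on this contrast, nothing is read from these counts. In bulk tissue, fewer cells of a type and less RNA per cell cannot be told apart.

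**Figure D1:**
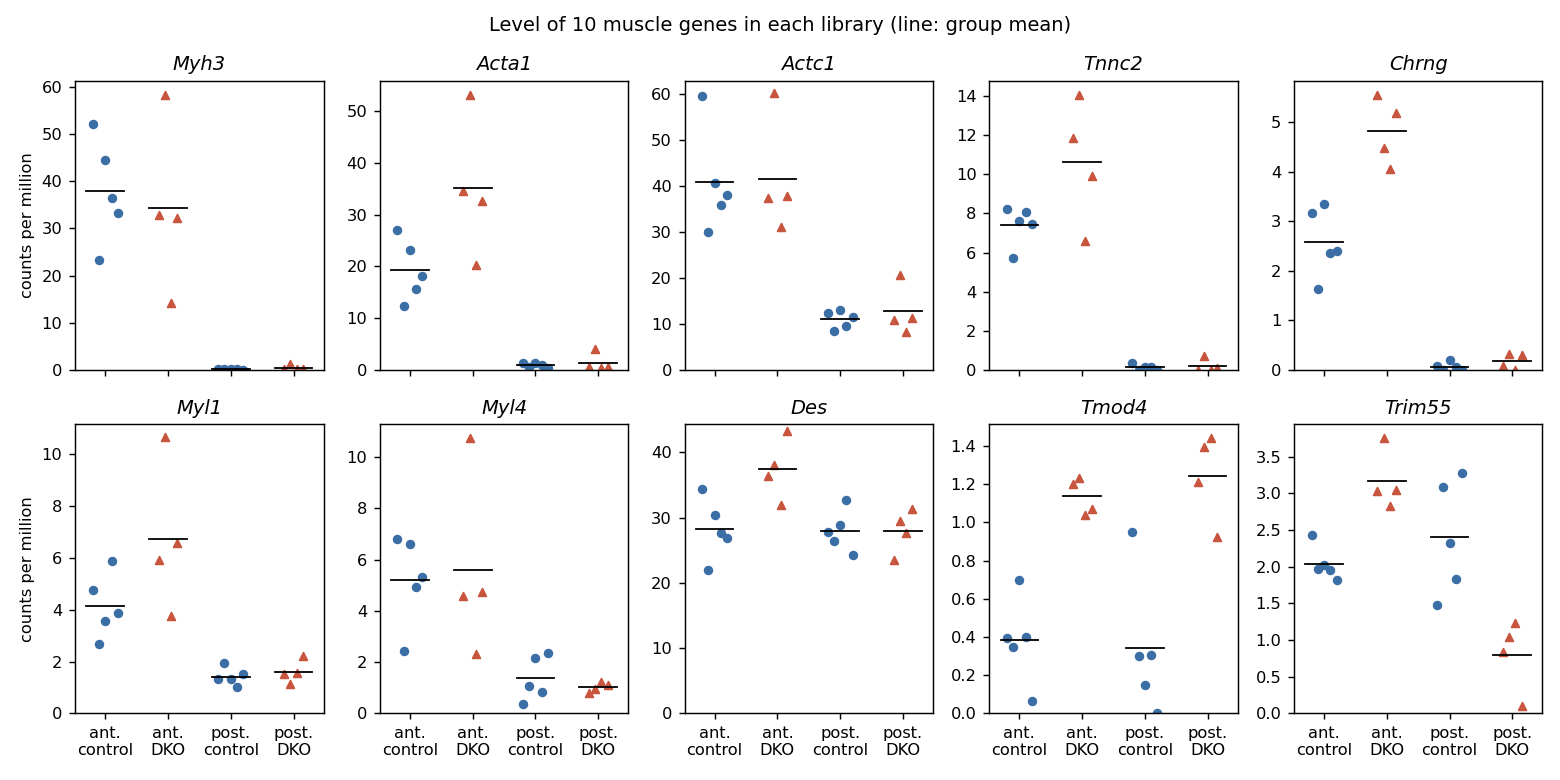
Level of the 10 genes in every library, in CPM on linear axes that start at 0; circles are control and triangles DKO libraries, and the line is the group mean. Myh3, Tnnc2 and Chrng are near 0 in the posterior piece, where DKO embryo 2 is the highest of its group, whereas Des has posterior control libraries between 24.2 and 32.7 CPM.

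The first comparison asked how loss of Meis1 and Meis2 bears on these genes in the anterior piece, where somites differentiate. The data show 9 of the 10 genes higher on average in DKO and 1 (Myh3) lower, but 0 of 10 passed the threshold of adjusted p below 0.05 in edgeR's quasi-likelihood test, where 0.0394% of 15238 genes did. With no adjustment, 7 of the 10 had p below 0.05 with DKO higher (Acta1, Tnnc2, Chrng, Myl1, Des, Tmod4 and Trim55), against 6.41% of all genes. Tmod4 is in this count and in the DESeq2 calls below, although it passed the filter on low counts only through its DKO libraries. The median log2 difference of the 10 genes was 0.58 and that of all genes tested was 0.00. DESeq2 put 2 of the 10 past the threshold (Chrng and Tmod4), with 1.94% of all genes, and limma-voom 0.

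The highest log2 differences were those of Tmod4, Chrng and Acta1. Tmod4, which caps the slow-growing ends of thin filaments in skeletal muscle, was at 0.397, 0.349, 0.700, 0.402 and 0.0648 CPM in controls and at 1.20, 1.24, 1.04 and 1.07 CPM in DKO. All DKO libraries lay above all controls, but control counts were only 1 to 9 per library. Since Tmod4 passed the filter on low counts only through its DKO libraries, nothing is read from its test or its lack of overlap. The fitted log2 difference was 1.59 (SE 0.380), with an edgeR adjusted p of 0.138 and a DESeq2 adjusted p of 0.0300. Chrng in anterior DKO was at 5.55, 4.48, 4.04 and 5.18 CPM, against at most 3.34 CPM in controls, again with no overlap. Its log2 difference was 0.92 (SE 0.207), which is 1.89-fold with a 95% interval of 1.38 to 2.59, with an adjusted p of 0.120 in edgeR and 0.00747 in DESeq2. Trim55, a sarcomere-associated ubiquitin ligase, was at 2.44, 1.98, 2.02, 1.95 and 1.81 CPM in controls and at 3.03, 3.76, 2.83 and 3.04 CPM in DKO (log2 difference 0.63, SE 0.158, edgeR adjusted p = 0.157). These 3 of 10 genes, Tmod4 included, had all DKO libraries above all controls, as 2.45% of all genes did. Acta1 had a log2 difference of 0.88 (SE 0.271, edgeR adjusted p = 0.223), with 3 of 4 DKO libraries above the highest control. With somite number as a covariate its adjusted p was 0.0342, where 0.551% of all genes passed, the range over 17 settings being 0.0342 to 0.540.

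The other anterior differences were smaller or had wider errors. Myl1 was at 4.76, 2.67, 3.58, 5.86 and 3.89 CPM in controls and at 5.92, 10.7, 3.75 and 6.57 CPM in DKO (log2 difference 0.70, SE 0.290, edgeR adjusted p = 0.343). Without DKO embryo 2 its log2 difference was 0.40, and without DKO embryo 3 it was 0.89. Tnnc2 was at 8.21, 5.73, 7.62, 8.05 and 7.45 CPM in controls and 11.9, 14.1, 6.58 and 9.89 CPM in DKO (0.52, SE 0.193, adjusted p = 0.291). Des was at 34.3, 22.0, 30.5, 27.7 and 26.8 CPM and at 36.5, 38.1, 31.9 and 43.2 CPM (0.41, SE 0.122, adjusted p = 0.213). In these 3 genes DKO embryo 3, the youngest of its group with 20 somites, was the lowest DKO library and overlapped the controls.

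Myh3, Actc1 and Myl4 had means that lay close together in the genotypes. The log2 difference was -0.14 for Myh3 (95% interval -0.87 to 0.59, edgeR adjusted p = 0.898), 0.03 for Actc1 (-0.44 to 0.49, adjusted p = 0.975) and 0.11 for Myl4 (-0.76 to 0.98, adjusted p = 0.939). Myl4 was at 6.80, 2.44, 6.61, 4.94 and 5.31 CPM in controls and at 4.57, 10.8, 2.31 and 4.74 CPM in DKO. The sign turned without control embryo 1 (0.01) or DKO embryo 3 (0.11) for Myh3, for Actc1 without DKO embryo 2 (-0.20), control embryo 2 (-0.07) or control embryo 4 (-0.02), and for Myl4 without DKO embryo 2 (-0.40) or control embryo 2 (-0.09). With somite number as a covariate the values were -0.01 for Actc1 and -0.03 for Myl4. The intervals leave room for differences of either sign.

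**Figure D2:**
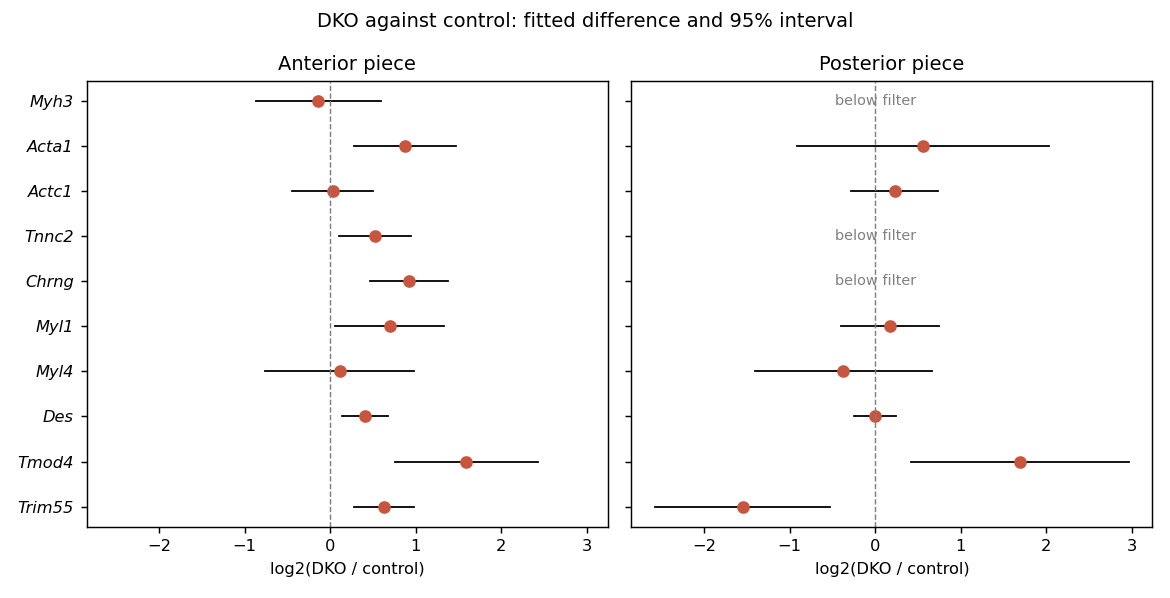
Fitted log2 ratio of DKO to control for each of the 10 genes (points) with its 95% interval (lines), in the anterior piece on the left and the posterior piece on the right, on the same axis. In the anterior piece 9 of 10 points lie above 0, and in the posterior piece Trim55 lies below 0 at -1.55; genes that did not pass the filter on low counts are marked.

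In the posterior piece 7 of the 10 genes passed the filter on low counts, and Myh3, Tnnc2 and Chrng did not. None of these 7 passed the edgeR threshold, where 0.0126% of 15936 genes did, and 2 had an unadjusted p below 0.05 (Tmod4 and Trim55), as did 11% of all genes. DESeq2 put 1 past the threshold (Trim55, adjusted p = 0.0496), with 1.01% of all genes, and limma-voom 0. Trim55 was at 1.48, 3.09, 2.32, 1.84 and 3.27 CPM in controls and at 0.833, 1.05, 1.23 and 0.102 CPM in DKO. All DKO libraries lay below all controls, as in 2.13% of all genes, with a log2 difference of -1.55 (SE 0.467, edgeR adjusted p = 0.364). Tmod4 was at 0.949, 0.301, 0.151, 0.306 and 0 CPM in controls and at 1.21, 1.40, 1.44 and 0.922 CPM in DKO, where control embryo 1 overlapped DKO embryo 4. In this piece too Tmod4 passed the filter only through its DKO libraries, so nothing is read from its test. Its log2 difference was 1.69 (SE 0.581, edgeR adjusted p = 0.409), and it was 1.44 to 2.55 with 1 embryo left out, the highest value being that without control embryo 1. Posterior Acta1 rested on 1 library, its log2 difference being 0.56 with DKO embryo 2 and -0.97 without it.

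Whether the DKO difference itself differed between the pieces was tested as an interaction over all 18 libraries. Myh3, Tnnc2 and Chrng entered this fit only through their anterior counts, having failed the posterior filter, and nothing is read from their values in it. Of the other 7 genes 0 passed in edgeR, as did 0% of 16428 genes, and 2 had an unadjusted p below 0.05 (Trim55 and Des), as did 3.45% of all genes. DESeq2 put 1 of the 7 past the threshold (Trim55), with 0.0609% of all genes, and limma-voom 0. Trim55 had opposite signs in the pieces, with a posterior minus anterior difference of -2.17 (SE 0.499), an edgeR adjusted p of 0.673 and a DESeq2 adjusted p of 0.00786. For Des the difference was -0.41 (SE 0.171, edgeR adjusted p = 0.999).

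The second comparison followed the genes along somite number, the stage label of the embryos, with genotype as a term in the fit. In the anterior piece all 10 fitted slopes were positive, with a median of 0.17 log2 units per somite against 0.00 over all genes. In edgeR 0 of 10 passed the threshold, where 0.0328% of 15238 genes did. With no adjustment 7 of the 10 had p below 0.05 with a positive slope (Myh3, Acta1, Actc1, Tnnc2, Chrng, Myl4 and Des), against 6.95% of all genes. DESeq2 put 4 of the 10 past the threshold (Myh3, Acta1, Actc1 and Myl4), with 2.38% of all genes, and limma-voom 0.

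The steepest slopes belonged to thick and thin filament genes. Myl4 had 0.41 per somite (SE 0.0740, edgeR adjusted p = 0.0804), Myh3 0.32 (SE 0.0666, adjusted p = 0.111), and Acta1 0.28 (SE 0.0455, adjusted p = 0.0723). By unadjusted p, Acta1 ranked 17, Myl4 45 and Myh3 79 among the 15238 genes. Both embryos with 20 somites had the lowest Myh3 and Myl4 levels of their genotype, at 23.4 and 14.1 CPM for Myh3, and the highest Myh3 level in DKO was that of the embryo with 24 somites. Within controls the order was less regular, since control embryo 1 with 23 somites had more Myh3 than control embryo 3 with 24. Without control embryo 4, edgeR put Myh3, Acta1 and Myl4 past the threshold, with 0.881% of all genes. Without DKO embryo 4 it put Acta1 past it, with 0.182% of all genes. With the sex label as a term edgeR called 0 genes of all tested, and the slopes were 0.47 for Myh3 (edgeR adjusted p = 0.302), 0.41 for Acta1 (adjusted p = 0.0704) and 0.52 for Myl4 (adjusted p = 0.302). The label of control embryo 1 goes against its Y-linked level, so this fit is not an adjustment for sex.

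The actin gene Actc1 had a slope of 0.18 (SE 0.0509, edgeR adjusted p = 0.180), the light chain gene Myl1 0.19 (SE 0.0895, adjusted p = 0.418) and the troponin C gene Tnnc2 0.15 (SE 0.0520, adjusted p = 0.251). Chrng had 0.14 (SE 0.0617) and Des 0.10 (SE 0.0308). Without DKO embryo 3 the slopes of Myl1 and Tnnc2 were 0.11 and 0.09, without DKO embryo 2 that of Myl1 was 0.11, and without control embryo 2 that of Chrng was 0.08. Tmod4 at 0.07 (SE 0.132, edgeR adjusted p = 0.886) and Trim55 at 0.06 (SE 0.0535, adjusted p = 0.734) had the flattest fits. Trim55 was at 0.03 without DKO embryo 2, and Tmod4 at -0.03 without control embryo 3 and 0.11 without control embryo 5. These are 2 of the 3 genes without overlap between the genotypes. In the posterior piece 0 of 7 genes passed in edgeR, where 0.0126% of all genes did, and 2 had an unadjusted p below 0.05, as did 6.42% of all genes. These were Actc1, with a slope of 0.22 (SE 0.0460, edgeR adjusted p = 0.193, DESeq2 adjusted p = 0.00465), and Acta1, with 0.56 (SE 0.182, edgeR adjusted p = 0.504), which was 0.28 without DKO embryo 2. DESeq2 put 1 of the 7 past the threshold (Actc1), with 0.922% of all genes, and limma-voom 0.

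**Figure D3:**
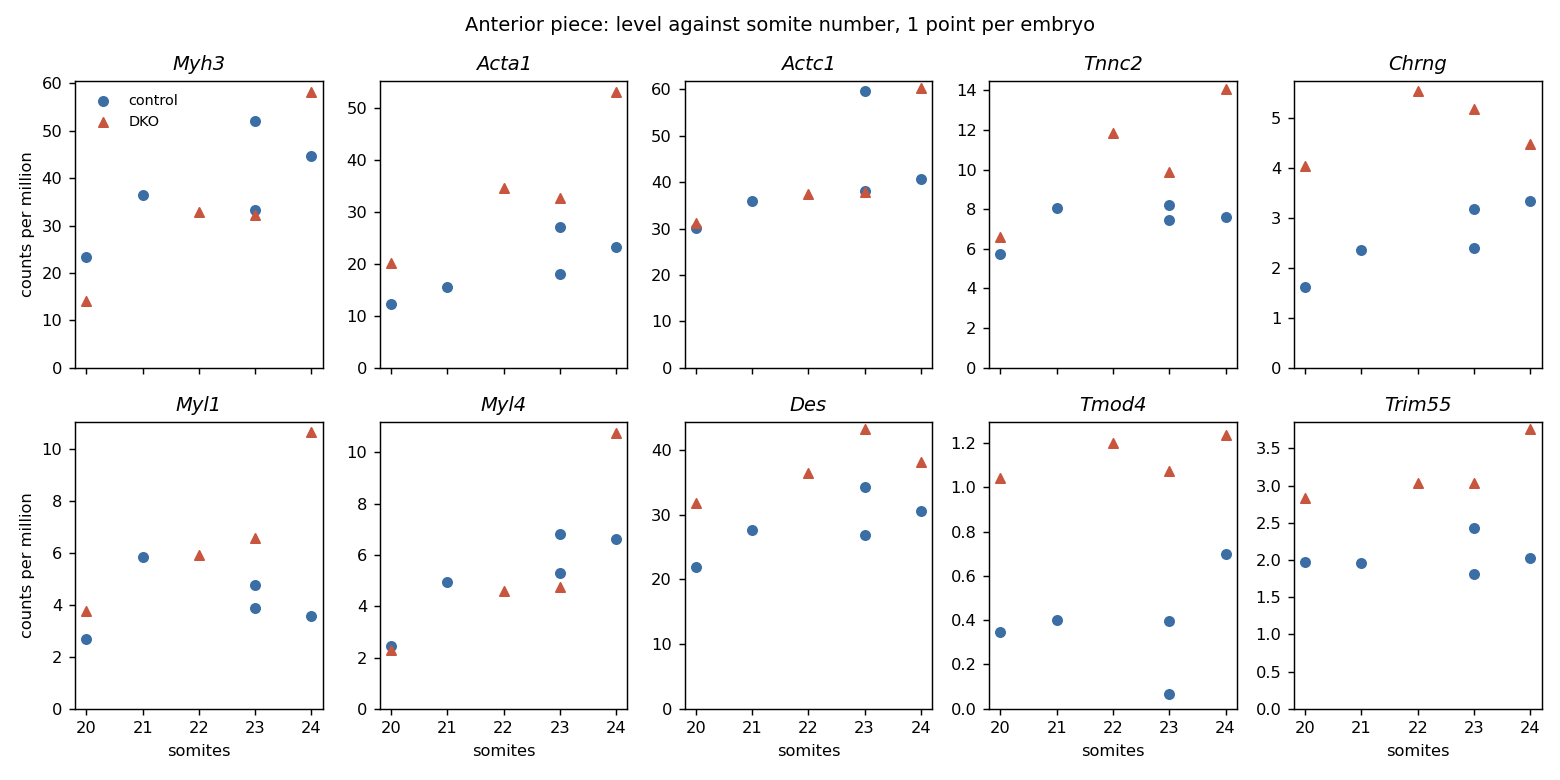
Level in the anterior piece against the number of somites, 1 point per embryo, in CPM on linear axes that start at 0; circles are control and triangles DKO embryos. The embryos with 20 somites have the lowest Myh3 and Myl4 levels of their genotype, and for Chrng and Trim55 the DKO points lie above the control points at every somite number.

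The 10 genes varied together between embryos to different degrees. After removal of the genotype means, the correlation of each gene with the mean of the other 9 over the 9 anterior libraries was 0.973 for Myh3, 0.962 for Acta1, 0.944 for Myl4, 0.885 for Actc1 and 0.878 for Tnnc2. It was 0.796 for Myl1, 0.779 for Trim55, 0.766 for Des, 0.633 for Chrng and 0.230 for Tmod4. These values are descriptions with no test, over libraries that differed in depth and in somite number. On the mean z score of the 10 genes the lowest anterior library was control embryo 2 with 20 somites (-1.28) and the highest DKO embryo 2 with 24 somites (1.42). With genotype means removed, that mean was correlated with 11642 other protein-coding genes that had a mean of at least 50 counts. Over the 9 libraries the 8 most correlated were Map2 (0.983), a microtubule-associated protein of neurons, then Ypel5, St6galnac6, Slc25a12, Unc5a, the slow and cardiac troponin C gene Tnnc1 (0.962), Chst15 and Gpx8 (0.954).

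Lists of related genes set these values in context. Of 30 other sarcomere genes, 25 passed the filter in the anterior piece, and 0 were called in DKO against control, with a median log2 difference of 0.23. An unadjusted p below 0.05 was found for 5, all higher in DKO, against 6.41% of all genes with DKO higher. Among these Myh1, named after its value was seen, passed the filter only through its DKO libraries. Along somite number 0 of the 25 were called, and the median slope was 0.20. Of the 25, 18 had an unadjusted p below 0.05 with a positive slope, against 6.95% of all genes. Among them were the titin gene Ttn (0.20, SE 0.0271, edgeR adjusted p = 0.0512) and the slow troponin I gene Tnni1 (0.26, SE 0.0452, adjusted p = 0.0744). The tropomyosin genes Tpm1 and Tpm2, the most abundant of the list by count, had slopes of -0.01 and 0.07. In the region comparison of controls, lists are counted over genes that passed the filter in both pieces, 14802 in all, of which 12.8% fell posteriorly in edgeR and 11.2% rose. Of the 19 sarcomere genes among them 12 fell and 1 rose (Tpm1, log2 difference 1.31, SE 0.0583, adjusted p = 2.4e-08). Ttn was lower posteriorly by a log2 difference of -4.17 (adjusted p = 2.31e-05).

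Of 16 tested myogenic regulators and fusion genes, 1 passed in anterior DKO against control. Cdh15, the M-cadherin gene of myoblasts, was at 14.4 ± 1.38 CPM (n = 5) in controls and rose to 23.5 ± 1.77 CPM (n = 4) in DKO, with a log2 difference of 0.71 (SE 0.0899, edgeR adjusted p = 0.0286). The call was lost without control embryos 2, 3, 4 or 5 or DKO embryos 1 or 3, each taken out singly, and also with all 18 libraries in 1 fit, and the adjusted p ranged up to 0.223 over 17 settings, with the log2 difference between 0.65 and 0.75. Among the genes named after their values were seen, Myf5, the earliest myogenic factor of the myotome, was at 10.2 ± 0.580 CPM in controls and 17.9 ± 3.61 CPM in DKO (0.80, SE 0.127, adjusted p = 0.0522), and Myog, the factor of terminal differentiation, at 17.6 ± 3.04 and 19.6 ± 5.36 CPM (0.16, SE 0.184, adjusted p = 0.756). The most abundant regulators, Srf (0.03), Pax3 (-0.03), Mef2a (0.09) and Eya1 (-0.06), had log2 differences near 0. In the region comparison 6 of 13 genes of the list that passed the filter in both pieces fell posteriorly and 5 rose, among them Srf and Eya1, against the shares of 12.8% and 11.2% over all such genes.

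Of 7 tested neuromuscular junction genes 0 were called in anterior DKO and 2 had an unadjusted p below 0.05, both higher, against 6.41% of all genes with DKO higher. The receptor subunit gene Chrnb1, a partner of Chrng in the same channel, was at 1.67 ± 0.449 CPM in controls and 3.84 ± 0.711 CPM in DKO (1.19, SE 0.220, edgeR adjusted p = 0.0724). The other receptor subunit genes tested, named after their values were seen, differed in sign, with Chrna1 at -0.19 (SE 0.226) and Chrnd at 0.83 (SE 0.312). The more abundant genes of the list, Lrp4 (-0.05), Ache (0.13) and Rapsn (0.22), had smaller values. Of 19 tested genes of excitation-contraction coupling and the sarcolemma, 0 were called in anterior DKO, with a median of 0.07. An unadjusted p below 0.05 was found for 1, higher in DKO, which is near the share of 6.41% over all genes. Along somite number 9 of the 19 had an unadjusted p below 0.05, all with positive slopes, against 6.95% of all genes rising, and 0 were called. The 4 most abundant, Atp2a2, Eno3, Dmd and Ryr1, had log2 DKO differences of 0.00, -0.04, -0.24 and 0.20. In the region comparison, over genes past the filter in both pieces, 6 of 14 genes of this list fell posteriorly and 0 rose, and of 5 junction genes 2 fell and 1 rose (Lrp4, 0.40), against 12.8% and 11.2% of all such genes.

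**Figure D4:**
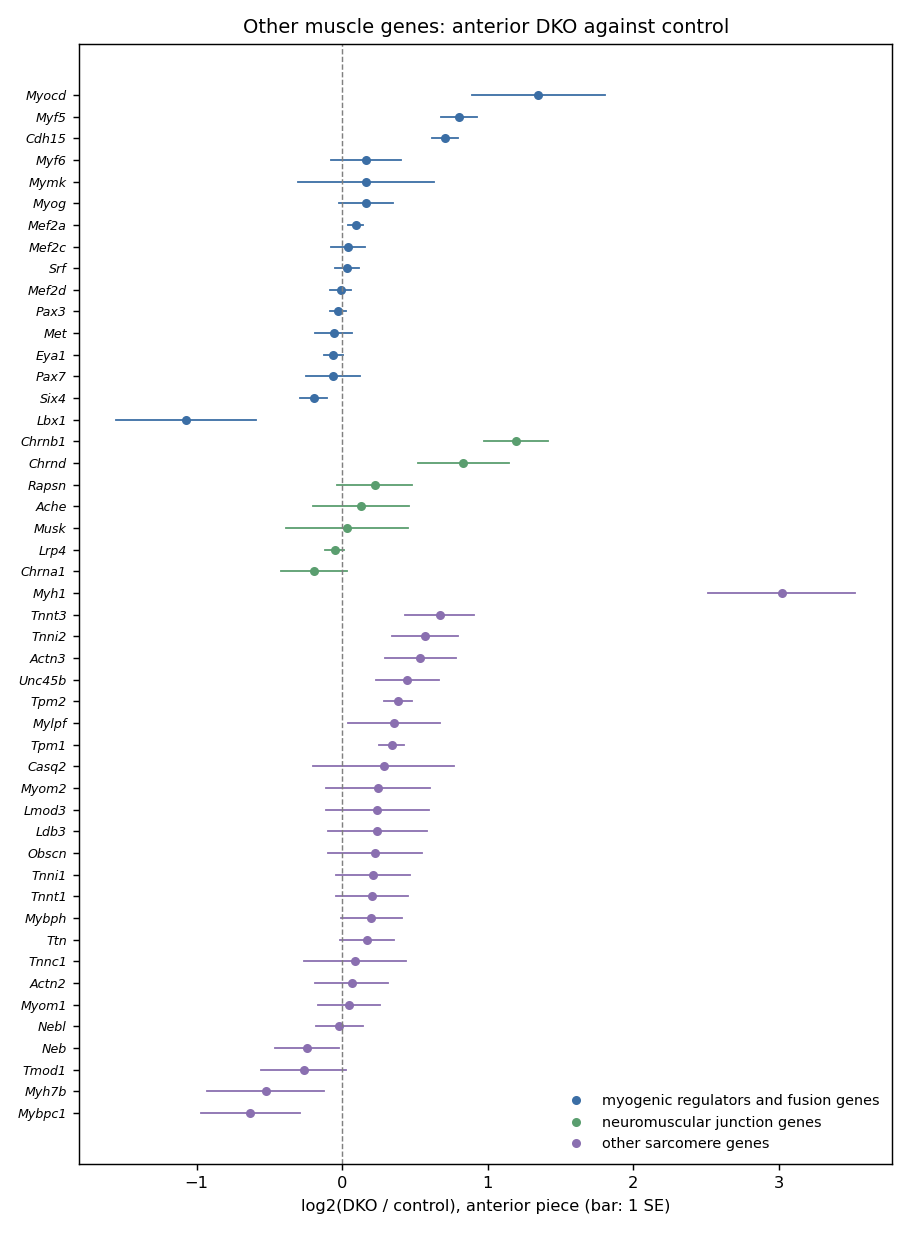
Log2 ratio of DKO to control in the anterior piece for the tested genes of 3 lists (points), with 1 SE to each side (lines); colours give the list. Cdh15 is the gene that passed the edgeR threshold; Myh1, at the far right and named after its value was seen, had 8 counts in all 5 controls together and an edgeR adjusted p of 0.0522.

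Markers of other tissues were read beside the anterior DKO values. Of all 15238 genes tested there, 1983 had an unadjusted p below 0.05 in either direction, and 6.41% had one with DKO higher. The marker counts here and in the next paragraph are set beside these values. The summed level of 16 heart markers was 28.3 to 66.3 CPM in controls and 30.3 to 48.0 CPM in DKO. The most abundant in anterior controls were Tnnt2 (10.7 CPM) and Myh7 (8.53 CPM), which embryonic skeletal muscle also expresses, then Hand1 (3.99 CPM) and Tbx5 (3.70 CPM). The Tbx5 mean, and with it its place in this order, rests on 1 control library at 12.2 CPM, the median being 1.36 CPM. Among markers named after their values were seen, Tbx20 averaged 3.64 CPM, Myh6 2.74 CPM, Myl7 1.79 CPM, Gata4 1.24 CPM, Nppa 0.317 CPM, Myl2 0.187 CPM and Nkx2-5 0.136 CPM (at most 4 counts in a library), and Nppb had 0 counts in all 5 controls. Of 12 tested heart markers 0 were called in DKO, 6 being higher and 6 lower, and 3 had an unadjusted p below 0.05, all lower, namely Hand1 (log2 difference -2.60, SE 1.03) and, named after their values were seen, Myh6 (-0.86) and Myl7 (-0.75). The other abundant markers, with unadjusted p above 0.05, had log2 differences of 0.41 for Tnnt2, 0.19 for Myh7 and -1.46 (SE 0.720) for Tbx5. The 8 smooth muscle markers summed to 91.6 to 124 CPM in controls and 86.8 to 130 CPM in DKO, and 0 of 6 were called (Tagln -0.27, Smtn 0.16, Acta2 -0.15 and Cnn1 -0.48 on the log2 scale). Of the 6, 3 were higher in DKO, and 2 had an unadjusted p below 0.05, both higher: Smtn and, named after its value was seen, Myocd (1.35).

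The 11 somite and presomitic markers summed to 311 to 368 CPM in anterior controls and 193 to 274 CPM in DKO, without overlap, 6 of 7 tested genes being lower, 5 of them with an unadjusted p below 0.05, and 0 called. The most abundant were Meox1 (log2 difference -0.42), Pax1 (-0.95), Foxc2 (-0.03) and Meox2 (-0.86). Of the presomitic and tail bud genes, named after their values were seen, T averaged 4.15 CPM and Tbx6 0.354 CPM in anterior controls, while Msgn1, Cdx4 and Hoxc10 averaged 0.0155, 0.0733 and 0.0580 CPM. The 6 neural tube markers summed to 438 to 528.9 CPM in controls and 529.3 to 595 CPM in DKO, without overlap. All 6 were higher in DKO, 4 of them with an unadjusted p below 0.05, and 0 were called. The most abundant were Sox2 (log2 difference 0.21), Tubb3 (0.29), Pax6 (0.22) and Sox1 (0.17), and, named after their values were seen, Olig2 was at 0.38 (SE 0.0607, edgeR adjusted p = 0.0522) and Nkx6-1 at 0.38 (SE 0.0821, adjusted p = 0.102). The 6 primitive erythroid markers summed to 959 to 4621 CPM and 1204 to 2016 CPM, and the 5 endothelial markers to 211 to 239 CPM and 172 to 225 CPM, with 0 called in either list. Log2 differences were between -0.76 (Hbb-y) and -0.66 (Hba-x) for the 4 most abundant erythroid genes, with Hbb-bh1 and Alas2 between them, and -0.10 for Kdr, -0.16 for Cdh5, -0.18 for Pecam1 and -0.14 for Emcn.

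The same markers were read beside the anterior somite slopes, and 0 were called in edgeR. Of all 15238 genes tested there, 1963 had an unadjusted p below 0.05 in either direction, and 6.95% had one with a positive slope. All 6 erythroid markers had positive slopes, with a median of 0.24 per somite and 1 with an unadjusted p below 0.05 (Hbb-y, 0.27). Of 12 heart markers 9 had positive slopes, and 3 had an unadjusted p below 0.05, all positive (Myh7 0.29, Tnnt2 0.21 and Tbx20 0.14). Of 6 smooth muscle markers 3 had an unadjusted p below 0.05, Tagln (0.16) and Cnn1 (0.42) with positive slopes and Myocd (-0.35) with a negative one. Of 6 neural tube markers Tubb3 had a positive slope (0.24, edgeR adjusted p = 0.125) and the other 5 negative ones, and 3 had an unadjusted p below 0.05 (Tubb3, Sox1 at -0.09 and Pax6 at -0.07). Of 7 somite and presomitic markers 2 had positive slopes, and 2 had an unadjusted p below 0.05, both negative (Foxc2 -0.13 and T -0.11). Of 5 endothelial markers 2 had positive slopes and 0 an unadjusted p below 0.05. For posterior slopes 0 markers were called, and 5 of 6 erythroid and 4 of 6 neural tube markers had an unadjusted p below 0.05, all rising. So did 3 of 5 endothelial and 2 of 7 smooth muscle markers, all rising. It was below 0.05 for 10 of 11 somite and presomitic markers, 5 of them rising, and 2 of 13 heart markers, 1 of them rising. The share over all genes there was 6.42% in either direction. Each of these markers had counts in at least 1 anterior library, and the part of other tissues in the values of the 10 muscle genes was not tested.

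Some of the 10 loci overlap other genes, and whether counting used the read strand is not given in the sources used here. Tnnc2 overlaps Ube2c on the opposite strand, with 41.9% of its 61-base windows in the antisense of Ube2c transcripts, and Ube2c had a mean of 4699 counts. After rounding, Tnnc2 had 0 counts in 4 posterior libraries. Acta1 lies within the long model Gm20388 on the opposite strand, but 0% of its windows are antisense to other transcripts. Windows of 61 bases shared with other genes on the same strand made up 10.1% of Myl1 (with the pseudogene Mylf-ps), 2.98% of Myh3 (mostly with Myh13), 1.30% of Acta1 and 0% of the other 7 genes.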

How the data were processed

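Per the labels, poly(A) RNA of dissected embryo pieces was sequenced from a single end at 61 bases (NEBNext libraries, HiSeq instrument). The deposited table holds the expected counts per gene that the authors estimated with RSEM on GRCm38, with CASAVA and cutadapt also named in the submitters' processing notes and no versions there. The aligner, the filters and the use of strand are not given in the sources used here. These values are not scaled between libraries.

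After rounding of the expected counts, edgeR 4.0.16 in R 4.3.3 was run (filterByExpr with minimum count 10 and minimum total 15, TMM scaling, glmQLFit and glmQLFTest), with Benjamini-Hochberg adjustment over all genes tested and a threshold of 0.05. The SE is the log2 value divided by the root of the F statistic. DKO was compared with control in each piece (5 against 4 libraries), the interaction used 18 libraries with no embryo term, and slopes per somite had genotype as a term. CPM are TMM-scaled, intervals are at 95%, and floors cover counting error only, since reads carry no molecular identifiers. Scripts were tested on simulated data. Alternatives were RLE size factors, DESeq2 1.42.0, limma-voom (limma 3.58.1), no filter, unrounded counts, covariates, 1 joint fit, an embryo block and leaving out each embryo; the sex label as a term was added after seeing the data.

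Pieces were matched to embryos by their labels (genotype, sex and somites). With group means removed, the pieces of the same embryo correlated at 0.256 to 0.570 over 16428 genes in 9 pairs, against -0.283 to 0.0916 between embryos of the same genotype.

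The 10 genes and all lists were chosen with earlier results of these data known. The lists were other sarcomere genes, myogenic regulators and fusion genes, neuromuscular junction genes, excitation-contraction and sarcolemma genes, and markers of heart, smooth muscle, somite and presomitic mesoderm, primitive erythroid cells, neural tube and endothelium. Named from each list were the 4 genes with the highest mean CPM in anterior controls and up to 5 past the threshold in a DKO or somite fit, besides the 8 genes most correlated with the 10. Genes named outside this rule are marked, and 1 gene of the regulator list is not reported here. Overlap and shared windows were read from GENCODE M21 transcripts, and start regions from RefSeq.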

Additional observations from a re-analysis of the deposited data

Results flagged for a closer look

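In the posterior piece of the DKO group, embryo 2 (24 somites) stood apart from the other 3 embryos for 3 of the 10 genes. Its gap to the next library, divided by the range of the group, exceeded Dixon's 95% critical value for 4 samples. Myh3 was at 1.19 CPM there, with the next library at 0.256 CPM (ratio 0.867). Acta1 was at 3.98 CPM, with the next at 0.615 CPM (ratio 0.920). Tnnc2 was at 0.698 CPM, with the next at 0.102 CPM (ratio 0.853). In all, 40 combinations of gene and group were examined. The critical value flags about 1 in 20 groups of independent values with a normal spread. That rate does not carry over here, since the 3 flags come from the same embryo and Myh3 and Tnnc2 lie near the floor in the others. The same embryo had the highest anterior level of Myh3, Acta1 and Tnnc2 among the DKO embryos.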

How the results depend on the processing

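Calls among the 10 genes depended on the tool. DESeq2 called 2 genes in anterior DKO against control, 1 in posterior DKO against control, 1 in the interaction, 4 for the anterior somite slope and 1 for the posterior slope, where edgeR called 0 in each. No filter on low counts gave 3 for the anterior slope, and somite number as a covariate gave 1 for anterior DKO. Leaving out 1 embryo gave 0 to 3 genes for the anterior slope and 0 in the other 4 comparisons, and 34 to 43 list genes (40 with all embryos, genes past the filter in 1 piece included) in the region comparison. The embryo as a replicate block gave 0 genes in the interaction, and over all genes it called 5136 in the region comparison. Over all genes, DESeq2 called 296 in anterior DKO, 161 in posterior DKO, 10 in the interaction, 356 for the anterior slope and 147 for the posterior slope; no filter gave 83, 14, 0, 162 and 29.

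Of the results recomputed, 960 kept their direction and side of the threshold, 44 turned sign, 20 became stronger, 12 weaker and 9 counts moved; the cause was not tested. With DESeq2, the interaction of Tnnc2 was 0.0353 and the posterior slope of Tmod4 was -0.00873. With limma-voom, posterior DKO values were -0.0205 for Acta1 and 0.0421 for Myl4, the interaction of Chrng was -0.0279 and the posterior slope of Tmod4 was -0.0861. With somite number as a covariate, anterior DKO values were -0.00741 for Actc1 and -0.0332 for Myl4; with the sex label as a term they were -0.0115 and -0.0460, and posterior slopes were -0.436 for Myl4 and -0.0104 for Des. Leaving out 1 embryo, anterior DKO values ranged from -0.507 to 0.112 for Myh3, -0.200 to 0.205 for Actc1 and -0.398 to 0.356 for Myl4. Posterior DKO values ranged from -0.967 to 0.865 for Acta1, -0.0998 to 0.384 for Actc1, -0.0197 to 0.316 for Myl1 and -0.0685 to 0.0727 for Des. Interactions ranged from -1.60 to 0.00772 for Acta1, -2.52 to 0.887 for Tnnc2, -0.184 to 0.824 for Chrng, -0.861 to 0.0911 for Myl4 and -0.342 to 0.949 for Tmod4. Anterior slopes ranged from -0.0276 to 0.112 for Tmod4 and -0.0222 to 0.0249 for Cdh15, and posterior slopes from -0.0927 to 0.0335 for Myl1, -0.00346 to 0.0288 for Des and -0.169 to 0.0814 for Tmod4.

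Depth limits Tmod4 in anterior controls (1 to 9 counts) and Chrng in posterior libraries (0 to 9 counts), and Myh3 and Tnnc2 in posterior libraries, which had at most 11 and 14 counts outside DKO embryo 2. With 4 DKO embryos and a single sex at each end of the somite range, stage and sex cannot be told apart.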
